A study of Rattus norvegicus with 12 samples.

Results

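Mitoplasts from rat skeletal muscle were compared with intact mitochondria from other aliquots of the same homogenate. The question was which RNAs remained with the organelle once its outer membrane had been stripped. The comparison took 6 of the 12 libraries of the series, chosen by their titles and column names, and used all 30560 genes of the count table. The mitoplast_RNase group held 3 libraries of mitoplasts, and the IP_RNase group held 3 libraries of intact mitochondria captured with antibody-coated magnetic beads. Hindlimb muscle, given as gastrocnemius in the series design, came from 1 wild-type male Wistar Kyoto rat aged 14 weeks, and its pooled homogenate was split into aliquots. Both groups had been treated with RNase A, which degrades accessible single-stranded RNA, and each library was made from 40 ng of RNA after depletion of ribosomal RNA. The IP_RNase_ProK group of 3 libraries, intact captured mitochondria given RNase A and proteinase K, served as a second point of reference, and 3 crude_RNase libraries of centrifuged mitochondria, made from 6.3 ng of RNA, entered the model fit. The source and tissue labels name immunoprecipitation for all groups, and only the titles and the design text tell mitoplasts from intact mitochondria. All aliquots came from 1 animal and 1 homogenate. Every SD, SE and p-value below therefore describes variation among aliquots, which may be wholly technical, and not variation among animals.

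A mitochondrion has an outer membrane, which lets small molecules pass through porin channels, and an inner membrane, which encloses the matrix with the mitochondrial DNA and carries the respiratory chain. A mitoplast is the inner membrane with its matrix. The mitochondrial chromosome encodes 13 respiratory chain subunits together with rRNAs and tRNAs, all transcribed and used inside the matrix, whereas all other mitochondrial proteins are encoded in the nucleus, translated outside and imported, some of them on ribosomes docked at the outer membrane.

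Total counts were 3975741, 4210404 and 3754889 in the mitoplast_RNase libraries and 3603514, 3325430 and 3911630 in the IP_RNase libraries. Replicates of a group were not identical within counting error: the chi-square per degree of freedom was 1.3 to 1.88 for pairs of mitoplast libraries and 2.02 to 7.31 for pairs of intact libraries, and both pairs with IP_RNase 3 were above 5. That library stood apart: mitochondrial genes took 10.9% of its counts, against 5.27% in IP_RNase 1 and 3.33% in IP_RNase 2, so the main values that rest on it are also given without it. Counts were spread over almost the whole annotation. Between 99.0% and 99.3% of the 1117 olfactory receptor genes, which encode odorant sensors of the nose, had counts in these 6 libraries, with a median of 38 to 46 counts per gene in mitoplasts and 37 to 44 in intact mitochondria, while the median nuclear gene had 79 to 89 counts in mitoplasts and 70 to 76 in intact mitochondria. Weakly counted genes were thus measured on top of this level. Skeletal muscle markers, 20 of which were tested, took 0.367% to 0.558% of the counts in mitoplasts and 0.343% to 0.441% in intact mitochondria, and none of them was at 0 in all 6 libraries.

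The mRNAs of the mitochondrial genome were the class with the largest share of called genes, and they were lower in mitoplasts. The 13 mitochondrial mRNAs took 1.89%, 1.84% and 1.51% of all counts in the mitoplast_RNase libraries, against 3.85%, 2.56% and 5.59% in the IP_RNase libraries. Every mitoplast library lay below every intact library. The means were 1.74% ± 0.207 in mitoplasts and 4.0% ± 1.52 in intact mitochondria (SD, n = 3 each), a difference of -2.25 percentage points with the smallest p that 3 libraries against 3 allow (exact permutation test, two-sided, p = 0.1; 0.5 once adjusted for the 10 gene classes compared). Without IP_RNase 3 the difference was -1.46 points. The share of all 37 mitochondrial genes was 3.941%, 3.389% and 2.515% in mitoplasts and 5.27%, 3.334% and 10.93% in intact mitochondria. In that share the groups overlapped, with IP_RNase 2 below mitoplast_RNase 1 and 2. Its difference was -3.23 points (exact permutation test, two-sided, p = 0.3, adjusted p = 0.6). Counts are relative to the total of each library, so less mitochondrial mRNA and more of the remaining RNA cannot be told apart, nor can fewer organelles and less RNA per organelle.

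**Figure D1:**
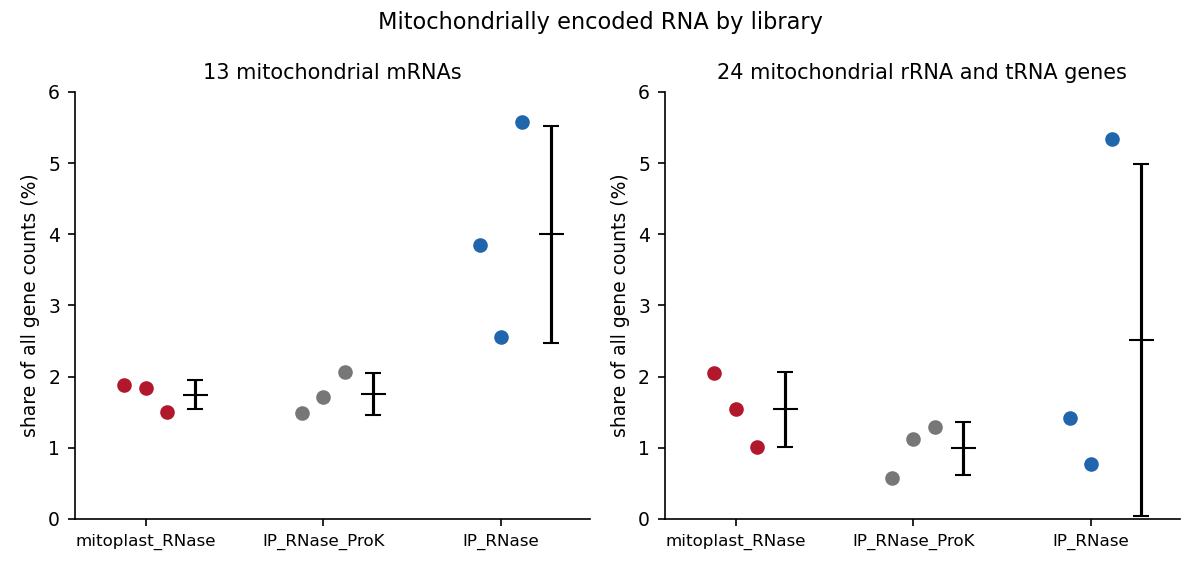
Share of all gene counts (%) taken by the 13 mitochondrial mRNAs (left) and by the 24 mitochondrial rRNA and tRNA genes (right) in mitoplast_RNase, IP_RNase_ProK and IP_RNase libraries. Points are libraries 1 to 3 from left to right, and the bar beside them is the mean ± SD (n = 3). The mRNA share is 1.51% to 1.89% in mitoplasts and 2.56% to 5.59% in IP_RNase, while in the right panel IP_RNase 3 at 5.34% lies far above the other 8 libraries.

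Across all genes, 41 of the 26483 tested passed an adjusted p of 0.05 in edgeR's quasi-likelihood test with Benjamini-Hochberg adjustment, which is 0.155% of the genes. The lower direction held 35 of them (0.132%) and the higher direction 6 (0.0227%). At an unadjusted p under 0.05 there were 2365 genes (8.93%). The lower set was made up of 12 of the 13 mitochondrial mRNAs, 16 genes without a name and 7 named nuclear genes, and the 6 higher genes were all named nuclear genes. Fold changes are log2 ratios of mitoplast_RNase over IP_RNase: 21 genes were lower by more than 1 on that scale and 1 was higher by more than 1. The median of all tested genes was -0.001, and the middle 90% lay between -0.37 and 0.30. CPM ranges, that is, counts scaled to 1000000 per library after normalisation, did not overlap between groups for all 35 lower genes and for 5 of the 6 higher genes. Ranges were separate for 16.0% of all tested genes. The called genes were chosen by this contrast on the same libraries, so their separate ranges are a description and no further support. The number called depended on the libraries that set the spread: with only the 6 libraries compared, 42 genes were higher and 73 lower, and the 41 genes above were all among them.

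**Figure D2:**
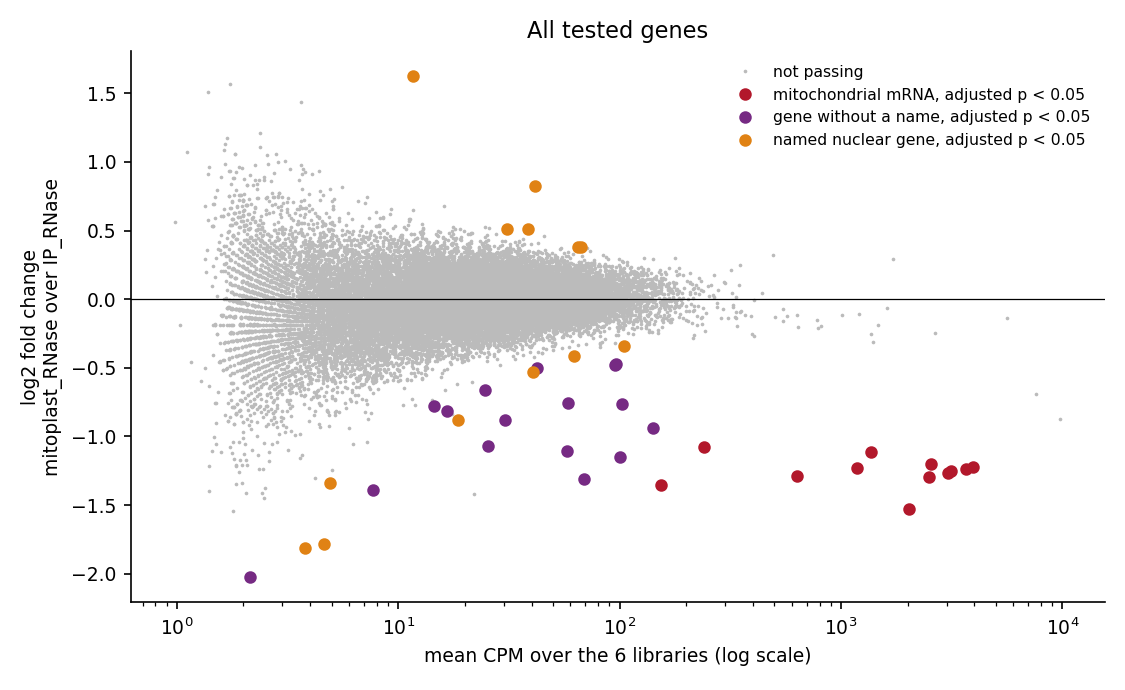
Log2 fold change of mitoplast_RNase over IP_RNase (vertical axis) against mean CPM over the 6 libraries (horizontal log axis) for all 26483 tested genes. Coloured points are the 41 genes with an adjusted p under 0.05, by class. The mitochondrial mRNAs form a band near a log2 fold change of -1.24 at high CPM, while the 6 higher genes are scattered at lower CPM.

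Among the respiratory chain mRNAs, those of complex IV were lower throughout. Mt-co3 (ENSRNOG00000030700), a subunit of cytochrome c oxidase, the enzyme that passes electrons to oxygen, had 5516, 5284 and 4213 counts in mitoplasts and 12329, 7454 and 18602 in intact mitochondria. Each mitoplast library was below each intact library, and Mt-co3 showed the largest fall of the 13 mRNAs, with a log2 fold change of -1.53 (SE 0.199, edgeR adjusted p = 1.46e-06). Its level was 1040 ± 115 CPM in mitoplasts and 3000 ± 1210 CPM in intact mitochondria (SD, n = 3 each). Mt-co2, the copper-binding subunit that receives electrons from cytochrome c, fell by 1.23 on the log2 scale (adjusted p = 3.23e-05). Mt-co1, the catalytic subunit, had 12111, 11401 and 8069 counts in mitoplasts and 18973, 11832 and 35096 in intact mitochondria, where IP_RNase 2 lay between the mitoplast values in raw counts. It fell by 1.24 (adjusted p = 0.00236). That call was lost without IP_RNase 3 (-0.76, adjusted p = 0.0914), without mitoplast_RNase 3 (-1.11, adjusted p = 0.0879), with a minimum count of 50 (adjusted p = 0.0714) and with DESeq2 (adjusted p = 0.091).

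The 7 mitochondrially encoded subunits of complex I, the NADH dehydrogenase that feeds electrons into the chain, were all lower. Mt-nd3 (ENSRNOG00000033615) had 492, 435 and 330 counts in mitoplasts and 922, 542 and 1372 in intact mitochondria, a log2 fold change of -1.35 (SE 0.164, edgeR adjusted p = 2.45e-07). Its CPM ranges were separate, and IP_RNase 2 was the lowest of the intact libraries, as it was for all 13 mRNAs in CPM. Mt-nd1 fell by 1.30, Mt-nd2 by 1.26, Mt-nd5 by 1.23, Mt-nd4 by 1.20 and Mt-nd4l by 1.08, with adjusted p-values of 7.95e-06 to 0.00107. Mt-nd6, the only mRNA encoded on the light strand, had 1840, 2174 and 1308 counts in mitoplasts and 3773, 2019 and 5697 in intact mitochondria and fell by 1.29 (SE 0.179, adjusted p = 6.16e-06). Its change thus lay within the range of the heavy-strand mRNAs. No source used here says whether counting took the strand into account, so reads of Mt-nd6 and of the opposite strand cannot be told apart.

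The single complex III subunit, Mt-cyb, which carries electrons from ubiquinol within the cytochrome bc1 complex, fell by 1.25 (adjusted p = 1.40e-04), to 1860 ± 166 CPM in mitoplasts, against 4420 ± 1600 CPM in intact mitochondria (SD, n = 3 each). Together with Mt-nd4l, the ATP synthase mRNAs had the smallest fold changes of the 13. Mt-atp6, part of the proton channel, had 4554, 4772 and 3141 counts in mitoplasts and 7429, 4354 and 12032 in intact mitochondria, and it fell by 1.11 (SE 0.194, adjusted p = 6.15e-04). Without IP_RNase 3 its value was -0.71 (adjusted p = 0.0646), without mitoplast_RNase 3 it was -0.98 (adjusted p = 0.0505), and with DESeq2 the adjusted p was 0.0951. Mt-atp8, whose reading frame overlaps that of Mt-atp6, was the only mRNA that did not pass. It had 75, 62 and 46 counts in mitoplasts and 88, 48 and 152 in intact mitochondria, overlapping ranges and a log2 fold change of -0.84 (SE 0.201, 95% interval -1.24 to -0.43, adjusted p = 0.0632). It passed with only the 6 libraries compared, where all 13 were called.

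The median over the 13 mRNAs was -1.24. It was -0.85 without IP_RNase 3, with 10 of the 13 called, and -1.50 without IP_RNase 2, with 13 called. The other 10 mRNAs, all but Mt-co1, Mt-atp6 and Mt-atp8, passed under each of the 16 alternatives run for them other than scaling on the mitochondrial mRNAs themselves. That scaling sets their median near 0 by construction.

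**Figure D3:**
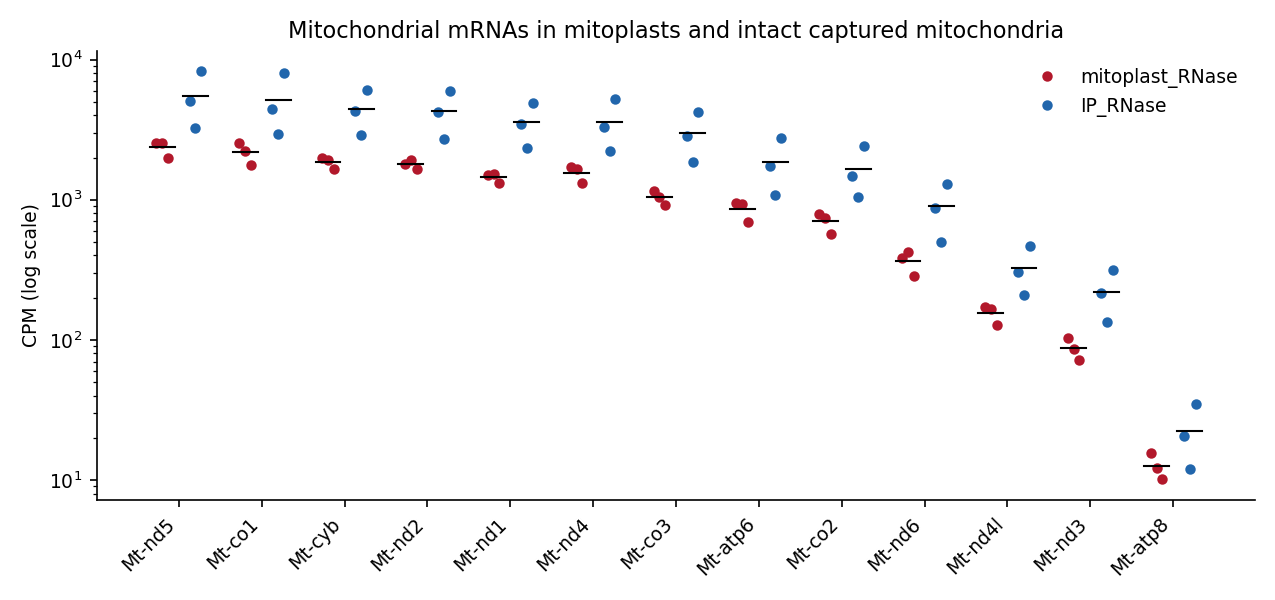
Level in CPM (log axis) of the 13 mitochondrial mRNAs in the 3 mitoplast_RNase libraries (left of each pair) and the 3 IP_RNase libraries (right of each pair). Points are libraries 1 to 3 from left to right and lines are means. The groups are separate for every mRNA but Mt-atp8, and the 3 IP_RNase libraries are spread more widely than the mitoplasts, as for Mt-co3 at 3000 ± 1210 and 1040 ± 115 CPM.

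Within the mitochondrial mRNA pool the proportions differed little. Mt-co3 made up 7.36%, 6.82% and 7.44% of mitochondrial mRNA counts in mitoplasts and 8.89%, 8.76% and 8.52% in intact mitochondria, with means of 7.21% ± 0.339 and 8.72% ± 0.192 (SD, n = 3 each). The ranges did not overlap, and the exact two-sided permutation p of 0.1 was the smallest possible. In the opposite direction, Mt-atp6 made up 5.93% ± 0.33 in mitoplasts and 5.33% ± 0.198 in intact mitochondria, Mt-nd4l 1.07% ± 0.0446 and 0.955% ± 0.0238, Mt-nd4 10.8% ± 0.161 and 10.4% ± 0.144, and Mt-atp8 0.0871% ± 0.0112 and 0.0632% ± 0.00659 (SD, n = 3 each). Those 4 also had separate ranges (exact p = 0.1 each, unadjusted over 13 mRNAs). The other 8 mRNAs overlapped between the groups (exact p of 0.3 to 0.9). With the libraries scaled on the mitochondrial mRNAs, none of the 13 passed, and Mt-co3 had the lowest value at -0.28 (edgeR adjusted p = 0.252).

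Of the 24 rRNA and tRNA genes of the mitochondrial genome, 4 had enough counts to be tested, and none passed in edgeR (2 at an unadjusted p under 0.05) or in DESeq2 (1 at that level, 3 genes with an adjusted p). The files give them accession-style names that do not tell them apart, so they are named by Ensembl ID. The most counted, ENSRNOG00000043866, had 43473, 35340 and 21502 counts in mitoplasts and 30509, 15670 and 117777 in intact mitochondria. ENSRNOG00000030478, the next most counted, had 38119, 29745 and 16275 in mitoplasts and 20582, 9994 and 90924 in intact mitochondria. In both genes IP_RNase 3 was the highest and IP_RNase 2 the lowest of the 6 libraries, and the groups overlapped. ENSRNOG00000043866 had a log2 fold change of -0.87 (SE 0.354, edgeR adjusted p = 0.441), which turned to 0.33 without IP_RNase 3 (adjusted p = 0.792) and reached -1.30 without IP_RNase 2 (adjusted p = 0.0494). ENSRNOG00000030478 had -0.69 (SE 0.361, adjusted p = 0.576), which turned to 0.67 without IP_RNase 3 (adjusted p = 0.515). The rRNA and tRNA genes together took 1.54% ± 0.524 of counts in mitoplasts and 2.51% ± 2.47 in intact mitochondria (SD, n = 3 each; difference -0.977 points, exact two-sided p = 0.9), and without IP_RNase 3 the difference turned to 0.438 points. A gene of lower counts in the same group, ENSRNOG00000029145, had 62, 76 and 37 counts in mitoplasts and 125, 72 and 216 in intact mitochondria (log2 fold change -1.42, edgeR adjusted p = 0.0524). It passed under 7 of 16 alternatives, among them the fit of the 6 libraries compared (adjusted p = 3.22e-11) and that of the 9 bead-captured libraries (adjusted p = 1.74e-09), and had -0.97 without IP_RNase 3 (adjusted p = 0.5).

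Counts of the 2 most counted genes per mitochondrial mRNA count were 1.09, 0.84 and 0.667 in mitoplasts and 0.369, 0.302 and 0.955 in intact mitochondria. All mitoplast libraries were above IP_RNase 1 and 2, but IP_RNase 3 lay among them. The means were 0.865 ± 0.212 in mitoplasts and 0.542 ± 0.36 in intact mitochondria (SD, n = 3 each; exact two-sided p = 0.3). The same ratio was 0.551 ± 0.149 in IP_RNase_ProK, where all 3 libraries lay below all 3 mitoplast libraries (exact p = 0.1, the smallest possible). When libraries were scaled on the mitochondrial mRNAs, ENSRNOG00000043866 was higher in mitoplasts by 0.59 (edgeR adjusted p = 0.0036) and ENSRNOG00000030478 by 0.79 (adjusted p = 0.0033). That scaling moved the median of all genes to 1.12 and called 24728 of 26483 tested genes higher. Both values lay below that median, and being called there is not particular to these genes. Ribosomal RNA had been depleted during library preparation, and how far depletion differed between libraries was not tested.

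Of 5498 tested genes without a name, 16 were lower in mitoplasts and none was higher. Over all 26483 tested genes, 35 (0.132%) were lower and 6 (0.0227%) were higher, so few higher calls would be seen in a class of this size. ENSRNOG00000069946 had the smallest p of all genes, with 317, 348 and 245 counts in mitoplasts and 638, 502 and 628 in intact mitochondria. The groups were well apart, at 62.8 ± 7.95 CPM in mitoplasts and 139 ± 12.6 CPM in intact mitochondria (SD, n = 3 each), and the log2 fold change was -1.15 (SE 0.0979, edgeR adjusted p = 8.47e-12). ENSRNOG00000068515 had 261, 137 and 177 counts in mitoplasts and 469, 327 and 459 in intact mitochondria, and it fell by 1.31 (adjusted p = 3.47e-09). ENSRNOG00000062889 fell by 1.11 (adjusted p = 3.47e-09), ENSRNOG00000066454 by 0.93 (adjusted p = 1.05e-08) and ENSRNOG00000070037 by 0.77 (adjusted p = 2.17e-08). These 5 passed under all 17 alternatives other than scaling on the mitochondrial mRNAs. The 16 log2 fold changes ran from -2.03 to -0.47 with a median of -0.85, and 14 of the genes had a mean of at least 50 counts. In 3 leave-out fits, those without mitoplast_RNase 1, without mitoplast_RNase 3 and without IP_RNase 1, the count of such genes fell to 11.

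The summed level of the 16 genes, a description since this contrast chose them, was 669, 649 and 590 CPM in mitoplasts and 1210, 1050 and 1150 CPM in intact mitochondria. Per 1000 mitochondrial mRNA counts they had 42.7, 42.6 and 47.6 counts in mitoplasts and 37.4, 49.8 and 22.9 in intact mitochondria. The spread between intact libraries was thus wider per mitochondrial mRNA than in CPM, with IP_RNase 3 lowest. No annotation used here gives these genes a name or a position, and reads shared with near-identical copies elsewhere in the genome cannot be told apart.

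**Figure D4:**
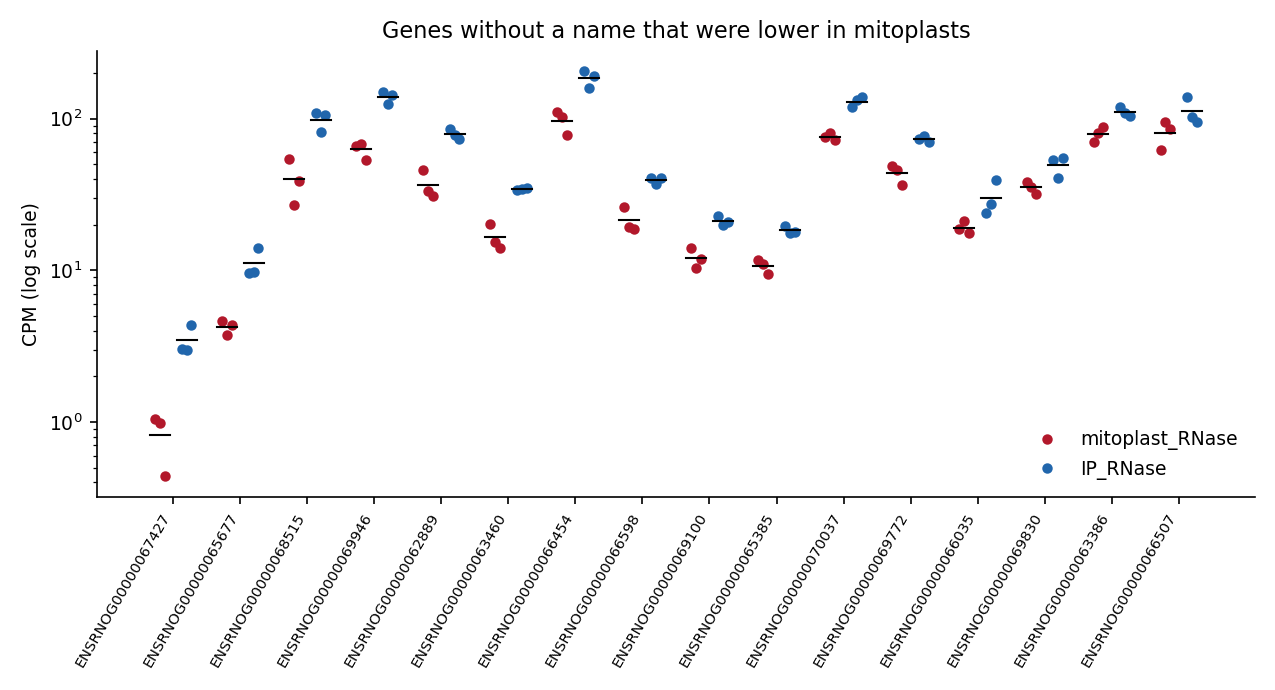
Level in CPM (log axis) of the 16 genes without a name that were lower in mitoplasts, by Ensembl ID and in order of log2 fold change from -2.03 to -0.47. Points left of each tick are the 3 mitoplast_RNase libraries and points right of it the 3 IP_RNase libraries, with lines at the means. The ranges do not overlap for any of the 16 genes, which this contrast selected.

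Nuclear genes that differed were few. Among the called genes with separate ranges, the largest rise was that of a 5.8S rRNA gene (5_8S_rRNA, ENSRNOG00000070263), a component of the large cytosolic ribosomal subunit, with 236, 204 and 324 counts in mitoplasts and 114, 111 and 155 in intact mitochondria. All mitoplast libraries were above all intact ones, and the log2 fold change was 0.83 (SE 0.138, edgeR adjusted p = 2.93e-04). Without mitoplast_RNase 3 it was 0.57 (adjusted p = 0.0817). In the opposite direction a 5S rRNA gene (ENSRNOG00000064405) had 5, 18 and 7 counts in mitoplasts and 30, 33 and 28 in intact mitochondria, and it fell by 1.78 (SE 0.333, adjusted p = 0.00215). That call was lost without mitoplast_RNase 1 (-1.47, adjusted p = 0.095) and without mitoplast_RNase 3 (-1.62, adjusted p = 0.0642). For both rRNA genes, how far depletion of ribosomal RNA differed between libraries was not tested. These 2 were the only nuclear rRNA genes called of 42 tested, the genes have near-identical copies, and the class as a whole took 0.0802% ± 0.00774 of counts in mitoplasts and 0.0781% ± 0.0111 in intact mitochondria (SD, n = 3 each; exact two-sided p = 0.8).

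Runx3 (ENSRNOG00000054217), a transcription factor of T cell and sensory neuron development, had 210, 241 and 206 counts in mitoplasts and 127, 141 and 135 in intact mitochondria. It rose by 0.51 (SE 0.106, edgeR adjusted p = 0.0104), with separate ranges. Amz1 (ENSRNOG00000024264), a zinc metalloprotease, had 172, 180 and 174 counts in mitoplasts and 103, 111 and 109 in intact mitochondria and rose by 0.51 (SE 0.111, adjusted p = 0.0212). Grik5 (ENSRNOG00000020310), a kainate receptor subunit, had 357, 375 and 358 counts in mitoplasts and 233, 253 and 250 in intact mitochondria and rose by 0.38 (SE 0.0874, adjusted p = 0.0461). These small rises depended on single libraries and on scaling. Runx3 lost its call without mitoplast_RNase 2 or 3 and without IP_RNase 1 or 3 (adjusted p up to 0.243), Amz1 without each library but IP_RNase 2 (adjusted p up to 0.294), and Grik5 without each library but IP_RNase 2 (up to 0.53). Scaling on library size alone ended all 3 calls (Runx3 0.56, adjusted p = 0.35; Amz1 0.56, adjusted p = 0.188; Grik5 0.42, adjusted p = 0.932). Grik5 was also lost with scaling on olfactory receptor genes (adjusted p = 0.119) and with mitochondrial genes left out (adjusted p = 0.0543). Next in order of p, and not passing, were Antkmt (0.68, adjusted p = 0.058), Dlx1 (0.53, adjusted p = 0.0586) and Chi3l1 (0.44, adjusted p = 0.0616), all of which passed with only the 6 libraries compared (adjusted p = 0.0108, 0.016 and 0.0171).

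Other called nuclear genes fell outside the rule for naming genes and are named here after their values were seen. Cp (ENSRNOG00000011913), ceruloplasmin, the copper-carrying ferroxidase of plasma, had 185, 150 and 144 counts in mitoplasts and 213, 184 and 211 in intact mitochondria and fell by 0.53 (SE 0.104, edgeR adjusted p = 0.00479). Cntnap5a, a neurexin-family adhesion protein, fell by 0.42 (adjusted p = 0.0407) and Vom1r72, a vomeronasal receptor, by 1.34 (adjusted p = 0.0451). Genes known by clone names fell as well: ENSRNOG00000047294 by 0.88 (adjusted p = 5.91e-04) and ENSRNOG00000058163 by 1.81 (adjusted p = 0.00163). Cp was not called without mitoplast_RNase 2 or 3 or IP_RNase 1 or 3 (adjusted p up to 0.167), Cntnap5a without mitoplast_RNase 1 or 3 or IP_RNase 1 or 3 (up to 0.422), and Vom1r72 without mitoplast_RNase 1 or 3 or IP_RNase 1 or 2 (up to 0.419). Library size scaling ended the calls of Cp (adjusted p = 0.613), Cntnap5a (adjusted p = 0.932) and Vom1r72 (adjusted p = 0.138), as did scaling on olfactory receptor genes (adjusted p = 0.263, 0.294 and 0.153). A further higher gene, Gm22988, had 85, 137 and 37 counts in mitoplasts and 9, 8 and 56 in intact mitochondria, so that IP_RNase 3 lay above mitoplast_RNase 3 (log2 fold change 1.63, adjusted p = 0.0436). It was not called without mitoplast_RNase 1 or 2 or IP_RNase 1 or 2 (adjusted p up to 0.756), nor with library size scaling (0.0615), olfactory receptor scaling (0.118) or a minimum count of 50 (0.0714), and it had 3.10 without IP_RNase 3 (adjusted p = 1.07e-04).

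Nuclear mRNAs for proteins of each mitochondrial compartment were then described by list, since stripping the outer membrane bears most directly on what is attached there. Over all tested genes 0.155% were called in edgeR and 8.93% had an unadjusted p under 0.05. At these shares, 0 calls in a list of this size or in the lists below say little about their members. None of the 41 tested outer membrane and docking genes passed in edgeR (3 at an unadjusted p under 0.05), with a median log2 fold change of 0.05 and a range of -0.54 to 0.38. DESeq2 called none and also had 3 at that level, but it assigned an adjusted p to only 7 of the 41. The smallest p-values in that list belonged to Vdac3, a porin, Maob, a monoamine oxidase anchored in the outer membrane, and Bak1, a pore-forming effector of apoptosis. Vdac3 had 123, 156 and 134 counts in mitoplasts and 88, 91 and 100 in intact mitochondria (0.38, 95% interval 0.13 to 0.63, edgeR adjusted p = 0.35). Maob had 57, 47 and 52 in mitoplasts and 79, 53 and 68 in intact mitochondria (-0.54, 95% interval -0.90 to -0.19, adjusted p = 0.339). Bak1 had 117, 107 and 125 in mitoplasts and 95, 72 and 74 in intact mitochondria (0.35, adjusted p = 0.429). None of this list was called with only the 6 libraries compared or with the 9 bead-captured libraries either.

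The deeper compartments gave the same count of 0 in edgeR. DESeq2 assigned an adjusted p to between 0 and 6 members of each of these lists, so its count of 0 was over few genes. The median was 0.06 for 25 intermembrane space genes (2 at an unadjusted p under 0.05 in edgeR), 0.01 for 42 genes of inner membrane import and carriers (4 at that level) and -0.08 for 45 matrix genes of energy metabolism (3). It was 0.01 both for 23 matrix chaperones and proteases (2) and for 48 genes that maintain mitochondrial DNA and RNA (2). Subunits of the respiratory chain encoded in the nucleus had medians of 0.02 over 34 complex I genes (1 at an unadjusted p under 0.05) and -0.05 over 39 genes of complexes II to V (2). The complex I genes took 0.0688% to 0.071% of counts in mitoplasts and 0.0643% to 0.0676% in intact mitochondria. Cycs, cytochrome c, which sits between the membranes, had 55, 48 and 50 counts in mitoplasts and 58, 46 and 73 in intact mitochondria (-0.40, edgeR adjusted p = 0.524). Ndufv1, the NADH-binding subunit of complex I, had 145, 161 and 146 in mitoplasts and 125, 110 and 97 in intact mitochondria (0.26, adjusted p = 0.511). Mitochondrial ribosomal protein genes, 74 tested, had a median of -0.04 (3 at an unadjusted p under 0.05). The median SE was 0.139 over all tested genes, 0.179 over the complex I genes and 0.173 over those of complexes II to V. On simulated data, 100% of genes changed by 1 on the log2 scale and 70% of those changed by 0.5 were called. Only genes with a mean of at least 50 counts were changed there. Changes of 0.5 were not always called even so, and smaller ones were not simulated. Apart from the changed genes, all simulated libraries had the same mean profile, with no outlying library such as IP_RNase 3. Recovery in the real libraries may therefore be lower. The complex I genes had a median of 12.8 CPM in both groups, against 8.91 CPM in mitoplasts and 9.66 CPM in intact mitochondria for olfactory receptor genes. How large a change would show on top of that level was not tested.

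**Figure D5:**
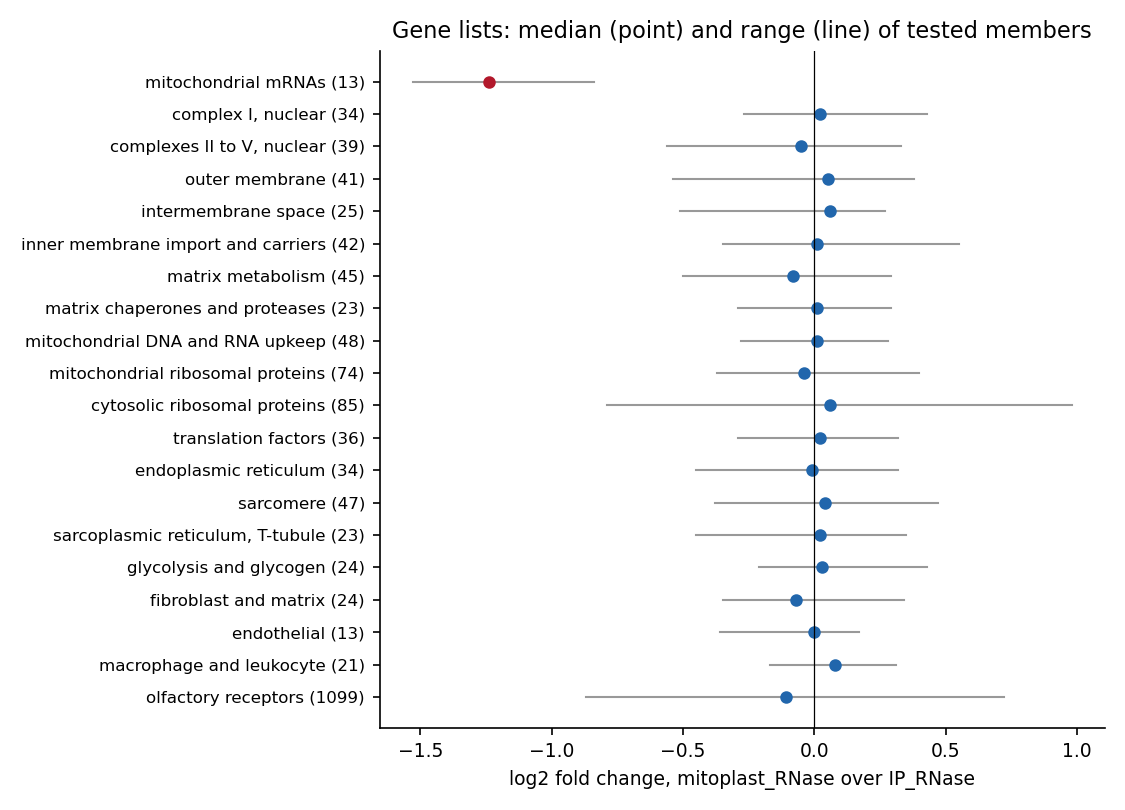
Log2 fold change of mitoplast_RNase over IP_RNase for 20 gene lists, with the median of the tested members as a point, their range as a line and their number in brackets. The red point marks the list with called members, the mitochondrial mRNAs at a median of -1.24, and the medians of the other lists shown lie between -0.11 and 0.08.

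Cytosolic translation and muscle mRNAs that lie outside the organelle gave no called gene in edgeR, beside 0.155% of all tested genes called and 8.93% at an unadjusted p under 0.05. DESeq2 called none either, with an adjusted p for 30 of the 47 sarcomere genes but for only 2 of the cytosolic ribosomal protein genes. Of 85 cytosolic ribosomal protein genes, 29 were below 0, 6 had an unadjusted p under 0.05, and the median was 0.06. Rps16, a protein of the small subunit, had 96, 118 and 84 counts in mitoplasts and 61, 61 and 66 in intact mitochondria (0.47, edgeR adjusted p = 0.277). The class took 0.17% ± 0.00464 of counts in mitoplasts and 0.157% ± 0.00528 in intact mitochondria without overlap (SD, n = 3 each; exact two-sided p = 0.1, adjusted p = 0.5 over 10 classes). Translation factors (36 tested, 4 at an unadjusted p under 0.05) had a median of 0.02 and endoplasmic reticulum genes (34 tested, 5 at that level) had a median of -0.01. Genes of signal recognition particle, Y and vault RNAs, 33 tested, had a median of -0.03, with 1 at that level.

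Among 47 sarcomere genes the median was 0.04, with 6 at an unadjusted p under 0.05, and the list took 0.63%, 0.787% and 0.577% of counts in mitoplasts, against 0.543%, 0.549% and 0.636% in intact mitochondria (difference 0.0884 points, exact two-sided p = 0.3). Mitoplast_RNase 2 was the highest and the groups overlapped. Tcap, which caps titin at the Z-disc, had 61, 78 and 73 counts in mitoplasts and 45, 43 and 46 in intact mitochondria (0.47, edgeR adjusted p = 0.346). Mybpc2, fast myosin-binding protein C, had 480, 590 and 515 in mitoplasts and 380, 345 and 411 in intact mitochondria (0.29, adjusted p = 0.327). Myoz1, a calcineurin-binding Z-disc protein, had 108, 122 and 125 in mitoplasts and 151, 124 and 130 in intact mitochondria (-0.38, adjusted p = 0.338). None of these 3 genes passed. Their CPM ranges did not overlap, as was the case for 16.0% of all tested genes, and they were named for the smallest p-values in the list. Ryr1, the calcium release channel of the sarcoplasmic reticulum, had 1751, 2052 and 1674 counts in mitoplasts and 1306, 1268 and 1474 in intact mitochondria (0.25, adjusted p = 0.402), and Aldoa (ENSRNOG00000067655), a glycolytic aldolase, had 103, 101 and 75 in mitoplasts and 55, 67 and 59 in intact mitochondria (0.43, adjusted p = 0.376). With only the 6 libraries compared, Mybpc2 (adjusted p = 0.0232) and Tnnt3, fast troponin T (0.37, adjusted p = 0.0311), passed as higher, and Col5a2, a fibrillar collagen chain, lower (-0.35, adjusted p = 0.0238). Their adjusted p-values in the fit of all 12 libraries were 0.327, 0.383 and 0.19. Tnnt3 had 351, 544 and 282 counts in mitoplasts and 221, 234 and 340 in intact mitochondria, overlapping ranges with mitoplast_RNase 2 highest, and without that library its value was 0.11 (adjusted p = 0.874 in the 12-library fit).

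Markers of other cell types in muscle gave 0 calls in edgeR, beside 0.155% of all tested genes called and 8.93% at an unadjusted p under 0.05. DESeq2 called none either, with an adjusted p for 14 of 24 fibroblast and matrix genes and 9 of 13 endothelial genes but for 1 to 7 members of each other list. Medians were -0.07 over 24 genes of fibroblasts and matrix (4 at an unadjusted p under 0.05 in edgeR), 0.14 over 13 of Schwann cells and nerve (2 at that level), -0.12 over 9 of the red cell lineage (0), 0.08 over 21 of macrophages and leukocytes (3) and 0.04 over 14 of adipocytes (2). They were 0.00 over 13 endothelial genes (2), 0.04 over 13 genes of smooth muscle and pericytes (1) and 0.03 over 12 satellite cell genes (0). Summed, fibroblast and matrix genes took 0.199% to 0.209% of counts in mitoplasts and 0.195% to 0.204% in intact mitochondria. Stress and immediate early genes, 25 tested, had a median of 0.09 and 0 called (4 at that level). The olfactory receptor genes had a median of -0.11, with 770 of 1099 tested below 0, a shift that scaling on these genes removes by construction. None was called in edgeR (81 at an unadjusted p under 0.05) or in DESeq2 (38 at that level, but only 2 genes with an adjusted p), and they took 1.55% ± 0.0531 of counts in mitoplasts and 1.61% ± 0.127 in intact mitochondria (SD, n = 3 each).

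Nuclear non-coding RNAs that earlier work placed in or on mitochondria were examined by name. Rpph1, the RNA of ribonuclease P, which trims the leader of tRNAs, had 44, 76 and 49 counts in mitoplasts and 33, 22 and 68 in intact mitochondria. IP_RNase 3 was high and the ranges overlapped, and the log2 fold change was 0.27 (SE 0.267, 95% interval -0.27 to 0.80, edgeR adjusted p = 0.795). It was 0.82 without IP_RNase 3 (adjusted p = 0.493). Rn7sl1, an RNA of the signal recognition particle, had 6, 10 and 13 counts in mitoplasts and 13, 7 and 9 in intact mitochondria (SE 1.99, adjusted p = 0.988). Its counts in the crude_RNase libraries, which enter the shared fit, were 320, 122 and 3857, and no difference of modest size could be placed in this fit. H19 and Sra1 both had a value of 0.13 (adjusted p = 0.768 and 0.91). Of 84 small nucleolar and Cajal body RNA genes tested, none passed in edgeR (10 at an unadjusted p under 0.05), and DESeq2 assigned no adjusted p. A U3 gene (ENSRNOG00000068470) came closest, with 26, 25 and 17 counts in mitoplasts and 53, 37 and 33 in intact mitochondria (-1.04, adjusted p = 0.0988). It passed with only the 6 libraries compared (adjusted p = 0.0108) and with the 9 bead-captured libraries (0.0174). So did SNORD15 (ENSRNOG00000055569), with 31, 37 and 10 counts in mitoplasts and 4, 4 and 17 in intact mitochondria (1.44, adjusted p = 0.0267 with 6 libraries, 0.0461 with 9 and 0.301 with 12), whose ranges overlapped through IP_RNase 3. Spliceosomal snRNA genes (203 tested, median 0.00, 11 at that level) and miRNA genes (186 tested, median 0.00, 5 at that level) also had 0 called in edgeR, and DESeq2 assigned no adjusted p to any of them.

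Set against IP_RNase_ProK, intact mitochondria whose surface proteins had been digested, mitoplasts gave 0 called genes in edgeR's test on all 12 libraries, with 741 (2.8%) at an unadjusted p under 0.05, and 0 in DESeq2, with 241 at that level. The mitochondrial mRNA share was 1.74% ± 0.207 in mitoplasts and 1.76% ± 0.294 in IP_RNase_ProK (SD, n = 3 each; exact two-sided p = 1.0). Log2 fold changes of mitoplast_RNase over IP_RNase_ProK ran from -0.22 to 0.11 over the 13 mRNAs, and their 95% intervals lay between -0.56 and 0.56. For Mt-co3 the value was -0.05 (95% interval -0.44 to 0.34), with 5516, 5284 and 4213 counts in mitoplasts and 4946, 4561 and 6182 in IP_RNase_ProK. The 16 genes without a name had a median of 0.0 and a range of -0.29 to 0.47 in the same contrast. IP_RNase_ProK against IP_RNase, a contrast that shares its IP_RNase libraries with the mitoplast comparison, had a median of -1.21 over the mitochondrial mRNAs, beside -1.24 for mitoplasts. In IP_RNase_ProK against IP_RNase, 8 genes (0.0302%) were called higher and 29 (0.11%) lower, 0.14% of the genes tested, and 8.86% had an unadjusted p under 0.05.

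Fits without the crude libraries found differences between mitoplasts and IP_RNase_ProK that the 12-library fit did not call. With only those 6 libraries 11 genes were higher in mitoplasts and 0 lower, and with the 9 bead-captured libraries 6 were higher. Ttn, which encodes titin, the elastic spring of the sarcomere, had 8262, 13134 and 6210 counts in mitoplasts and 6489, 6111 and 5668 in IP_RNase_ProK (log2 fold change 0.60, edgeR adjusted p = 7.57e-07 with 6 libraries and 1.0 with all 12). Mitoplast_RNase 2 was far above the others, and mitoplast_RNase 3 was close to the IP_RNase_ProK values in raw counts. Myh4, the fast IIb myosin heavy chain (0.37, adjusted p = 2.60e-05 with 6 libraries), and Tnnt3 (0.51, adjusted p = 6.40e-05) were likewise called. So was a gene labelled 28S (ENSRNOG00000064743), 28S being the large rRNA of the cytosolic ribosome. It had 133, 95 and 101 counts in mitoplasts, 60, 31 and 40 in IP_RNase_ProK and 36, 19 and 174 in IP_RNase. Its log2 fold change over IP_RNase_ProK was 1.36 (edgeR adjusted p = 1.74e-10 with 6 libraries, 0.00257 with 9 and 0.538 with 12). How far depletion of ribosomal RNA differed between these libraries was not tested.

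In the 6-library fit against IP_RNase_ProK further calls were Pde4dip (0.28), a signal recognition particle RNA gene, Rpph1, Gm22988 and the 2 most counted mitochondrial rRNA and tRNA genes. Rpph1 had 44, 76 and 49 counts in mitoplasts and 34, 40 and 17 in IP_RNase_ProK (0.92, edgeR adjusted p = 0.0409 with 6 libraries, 0.268 with 9 and 1.0 with 12). The signal recognition particle RNA gene (ENSRNOG00000048993) had 37, 66 and 34 counts in mitoplasts and 18, 20 and 24 in IP_RNase_ProK (1.17, adjusted p = 0.00527 with 6 libraries, 0.556 with 9). Its counts in IP_RNase were 16, 13 and 94, so that IP_RNase 3 was again the highest library. ENSRNOG00000043866 was higher by 0.64 (adjusted p = 4.90e-04 with 6 libraries, 1.0 with 9) and ENSRNOG00000030478 by 0.66 (adjusted p = 6.01e-04 with 6 libraries, 1.0 with 9).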

How the data were processed

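Counts were analysed of 12 ribosomal RNA-depleted libraries of rat skeletal muscle mitochondria in 4 groups of 3. The authors deposited raw read counts for each Ensembl gene. Tools named in the submitters' processing notes are STAR 2.7.11a, HTSeq, cutadapt 4.6 and FastQC 0.74, and the build named is mRatBN7.2. No source used here gives the annotation release, the strand setting or the treatment of multiply matching reads. Libraries were grouped by title, and 0 columns belonged to other samples.

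EdgeR 4.0.16 in R 4.3.3 fitted all 12 libraries in 1 model of 4 groups, without a replicate block (quasi-likelihood F test, TMM scaling, filterByExpr with a minimum count of 10, Benjamini-Hochberg adjustment, threshold 0.05). This kept 26483 of 30560 genes (86.7%) at a common biological coefficient of variation of 0.0644. TMM factors were 1.12 to 1.22 in the 6 libraries compared and 0.525 to 0.679 in crude_RNase. The SE is the absolute log2 fold change divided by the square root of F, which uses dispersions moderated over all genes. The fit was tested on simulated data for the comparison of mitoplast_RNase and IP_RNase, over 26483 genes, with 10 false calls. Shares were compared by exact permutation tests with SciPy 1.17.1. Gene classes came from deposited names and, for nuclear protein-coding genes, a RefSeq table of assembly GRCr8, which matched 17175 of 21599 names that occur once.

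Genes were named by this rule: the 8 highest and 8 lowest called genes with a mean of at least 50 counts, a symbol and separate CPM ranges, up to 3 members of each of 35 lists by smallest p, the mitochondrial mRNAs, the 2 most counted mitochondrial rRNA and tRNA genes, Rpph1 and Rn7sl1, the 5 genes of smallest p without a symbol and, to fill a direction, genes next in order of p. Not every gene that the rule took is printed, and some called genes are not reported here. The comparison, gene lists and rule were chosen with earlier results of these data known. PCR copies are not independent molecules, and standard errors cover only the spread between these libraries. Alternatives were DESeq2 1.42.0, other scalings and filters, fits of fewer libraries, a replicate block and leaving out each library.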

Additional observations from a re-analysis of the deposited data

How the results depend on the processing

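Main counts against IP_RNase were 6 higher and 35 lower genes, 12 mitochondrial mRNAs and 16 unnamed genes. DESeq2 gave 3 and 29, of which 2 and 19 were among the main calls (adjusted p not assigned for 22591 genes), library size scaling 1 and 27, and scaling on olfactory receptor genes, which moved the median of all genes to 0.101, 3 and 25, with 10 unnamed genes. Fits of the 6 libraries compared gave 42 and 73 with 28 unnamed genes, and of the 9 bead-captured libraries 49 and 85 with 31; against IP_RNase_ProK they gave 11 and 6 calls where the fit of 12 libraries gave 0. The cause was not tested. Leaving out 1 library gave 1 to 6 higher and 24 to 36 lower genes, 10 to 13 mitochondrial mRNAs, 11 to 16 unnamed genes, a mitochondrial mRNA median of -1.50 to -0.85, and 0 to 1 calls against IP_RNase_ProK.

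Scaling on the mitochondrial mRNAs gave 24728 higher and 0 lower genes, 0 mitochondrial mRNAs, 0 unnamed genes, 1 call against IP_RNase_ProK and, by construction, a mitochondrial mRNA median of 0.02. Genes reversed there were Mt-co1 (0.05), Mt-co2 (0.02), Mt-nd5 (0.05), Mt-nd4 (0.06), Mt-atp6 (0.15), Mt-nd4l (0.17), Cntnap5a (0.72), Cp (0.58), ENSRNOG00000047294 (0.18), and the unnamed ENSRNOG00000066454 (0.18), ENSRNOG00000070037 (0.34), ENSRNOG00000063386 (0.63), ENSRNOG00000069772 (0.31), ENSRNOG00000066035 (0.51), ENSRNOG00000069830 (0.65), ENSRNOG00000066598 (0.24), ENSRNOG00000066507 (0.64), ENSRNOG00000063460 (0.03), ENSRNOG00000069100 (0.31) and ENSRNOG00000065385 (0.34).

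Leaving out 1 library turned the share difference between mitoplast_RNase and IP_RNase for mitochondrial rRNA and tRNA (-1.85 to 0.438 points), nuclear rRNA (-0.00307 to 0.00799), signal recognition particle, Y and vault RNA (-0.000743 to 0.00114; -0.000174 without mitochondrial rRNA and tRNA counts), olfactory receptors (-0.124 to 0.00291) and unnamed genes (-0.682 to 0.0153). The mitochondrial share difference of -3.23 points (exact two-sided permutation p = 0.3, adjusted p = 0.6, overlapping groups) ran from -4.82 to -1.02. None of these shares could reach an exact p below 0.1.

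The labels tie same-numbered libraries of different groups only by that number. Their deviations over all tested genes correlated at 0.026, -0.051 and -0.008. Counting noise also brings such values near 0, so they cannot tell whether same-numbered aliquots were handled together. With a replicate block the 12-library fit gave 6 higher and 35 lower genes, 11 mitochondrial mRNAs and 16 unnamed genes, losing Mt-co1 (adjusted p = 0.0706), and the 6-library fit gave 36 and 69 with 27 unnamed genes, and 12 calls against IP_RNase_ProK.

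Depth limits weakly counted genes: the median nuclear gene had 70 to 89 counts in the 6 libraries compared. A signal recognition particle RNA gene (ENSRNOG00000054307) with 13 to 23 counts had a 95% interval of -1.02 to 0.25. For a Y RNA gene (ENSRNOG00000061591) with 5 to 19 counts it was 0.15 to 1.69. Such intervals are too wide to place a modest change.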
